A study of Mus musculus with 4 samples.

Results

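The mouse mitochondrial genome is a small circular chromosome that carries 37 genes, of which 13 are messenger RNAs, 2 are ribosomal RNAs and 22 are transfer RNAs. All 37 were taken by their place on the mitochondrial chromosome in the gene annotation, out of 47069 genes in the count table, and none was chosen for its values. In the annotation 28 of them lie on the plus strand, and 9 lie on the minus strand, namely 8 transfer RNAs and mt-Nd6. All 37 had a count in both tumour libraries, and 32 had a count in at least 1 exosome library.

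The libraries compared exosomes released by a tumour with the tumour itself. Lewis lung carcinoma, an established mouse lung carcinoma cell line, was grown under the skin of C57BL/6 mice, and tumours were taken 3 weeks after inoculation. In the exosome group (2 libraries), tumour pieces were kept for 12 h in medium without serum, the medium was spun and passed through a 0.2 µm filter, and vesicles were precipitated with a reagent, not pelleted by ultracentrifugation, before RNA was extracted. The tumour group (2 libraries) was RNA of the primary tumour, and both groups share host strain, tumour line and time. The labels do not say whether the 2 libraries of a group came from separate animals, and p-values here describe the spread between 2 libraries, which may be technical. The exosome libraries held 305751 and 217201 counts and the tumour libraries 14543691 and 10849811, so 1 exosome count weighs far more than 1 tumour count. Mitochondrial genes held 906 and 636 counts in exosomes and 317025 and 171113 in tumour. Intervals given below cover counting error only, since reads were amplified without molecular identifiers.

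Both strands of the mitochondrial genome are transcribed as long precursors that span many genes, and transfer RNAs lie between most of the longer genes. Enzymes cut the precursors at both ends of each transfer RNA, which frees the messenger and ribosomal RNAs at the same time, and a CCA tail is then added to the transfer RNAs. The messenger RNAs encode membrane subunits of respiratory complexes I, III and IV and of ATP synthase, while the ribosomal and transfer RNAs serve translation inside the mitochondrion. Neighbouring genes on 1 strand therefore start from the same precursor, and their separate levels depend on processing and decay.

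The transfer RNAs held most of the mitochondrial counts in both groups, and 8 of them carry the results below. The first 4 lie on the plus strand and the last 4 on the minus strand. Sequences are from the GENCODE M21 transcripts (GRCm38), 5′ to 3′ in the sense of the gene and without the CCA tail, with the anticodon in capitals.
mt-Ts2: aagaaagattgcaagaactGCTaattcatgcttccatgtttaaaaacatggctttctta
mt-Th: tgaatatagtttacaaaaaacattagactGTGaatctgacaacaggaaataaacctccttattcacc
mt-Tv: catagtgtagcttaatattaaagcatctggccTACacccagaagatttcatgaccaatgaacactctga
mt-Tg: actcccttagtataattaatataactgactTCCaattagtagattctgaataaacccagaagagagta
mt-Ts1: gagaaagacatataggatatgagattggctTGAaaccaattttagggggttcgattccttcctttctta
mt-Tp: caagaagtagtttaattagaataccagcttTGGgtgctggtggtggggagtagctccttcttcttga
mt-Ta: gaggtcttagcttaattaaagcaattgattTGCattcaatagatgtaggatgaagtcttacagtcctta
mt-Tq: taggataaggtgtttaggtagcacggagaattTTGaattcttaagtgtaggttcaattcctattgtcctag
mt-Ts2 (chrM:11613-11671, plus strand) is the serine transfer RNA for AGY codons, and at 59 bases it is the shortest of the 22, since it lacks the D arm. mt-Ts1 (chrM:6870-6938, minus strand) is the serine transfer RNA for UCN codons, and the 2 sequences matched at 38 of 69 alignment columns (55.1%). The minus-strand transfer RNAs had 17.9% to 29.9% guanine (median 23.0%) and those of the plus strand 7.14% to 21.3% (median 15.7%).

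Mitochondrial RNA took a smaller part of the exosome libraries than of the tumour libraries. By share of the full library total, transfer and ribosomal RNAs were lower in exosomes, and messenger RNAs were close between the groups. All 37 genes together made up 0.296% and 0.293% in exosomes and 2.18% and 1.58% in tumour, so that the mean share was 0.295% ± 0.00248 (SD, n = 2) against 1.88% ± 0.426, a 6.38-fold difference. The 22 transfer RNAs made up 0.231% ± 0.00166 in exosomes and 1.67% ± 0.411 in tumour, 7.23-fold apart. Ribosomal RNAs held 0.0351% ± 0.00380 against 0.175% ± 0.0150, 4.98-fold apart. Messenger RNAs had 96 and 54 counts in exosomes and 4740 and 3458 in tumour, and their shares of 0.0281% ± 0.00462 and 0.0322% ± 0.000509 differed by less than 1 SD of the exosome libraries. With 2 libraries against 2, an exact permutation test cannot reach 0.05, so shares are described without a test. When small nucleolar and small nuclear RNA genes were left out of the library total, the mean shares were 0.602% in exosomes and 33.5% in tumour for all members, and 0.0574% and 0.581% for messenger RNAs, so that both the size of these gaps and whether messenger RNA differed depend on the total used. In these bulk libraries, fewer mitochondria-bearing cells or particles and less mitochondrial RNA in each cannot be told apart.

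Within the mitochondrial counts the make-up differed between the groups. Messenger RNA made up 10.6% and 8.49% of mitochondrial counts in exosomes and 1.495% and 2.02% in tumour. Transfer RNA made up 78.5% and 78.6% in exosomes and 90.0% and 87.6% in tumour. Minus-strand transfer RNAs took 32.3% and 27.5% of the mitochondrial counts in exosomes and 12.98% and 11.2% in tumour, while plus-strand transfer RNAs other than mt-Ts2 took 8.94% and 8.81% in exosomes and 19.6% and 25.1% in tumour. For each of these parts, both libraries of 1 group lay on the same side of both libraries of the other.

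**Figure D1:**
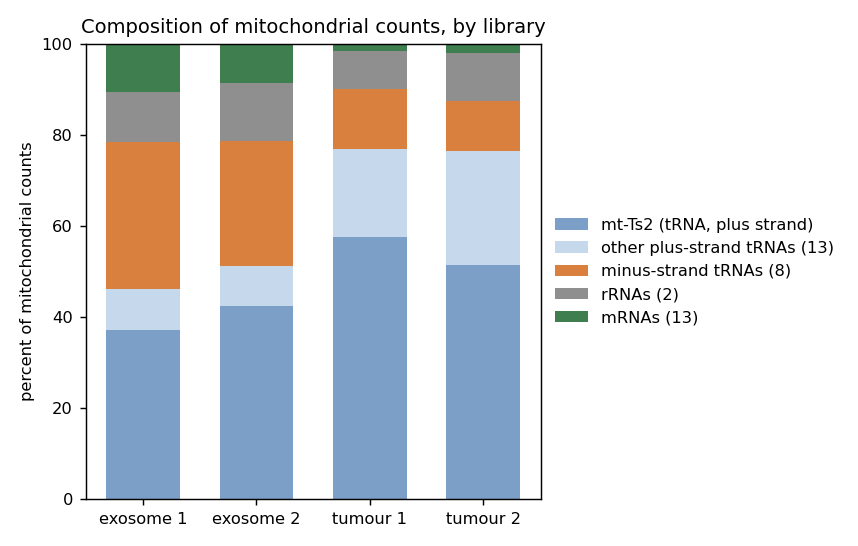
Percent of mitochondrial counts (vertical axis, 0 to 100) in each of the 4 libraries, split into mt-Ts2, the other plus-strand transfer RNAs, minus-strand transfer RNAs, ribosomal RNAs and messenger RNAs. Minus-strand transfer RNAs fill 32.3% and 27.5% of the exosome bars and 12.98% and 11.2% of the tumour bars.

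The differences that follow are log2, exosomes minus tumour, from edgeR's quasi-likelihood fit of all 1442 genes with enough counts, with p-values adjusted over those genes and called at 0.05. They use TMM scaling, which sets the typical tested gene near 0 (median 0.02), and a second value with library totals as the scale is given beside them, because that scale moves the median of all tested genes to 2.75. With TMM, 32 of the 36 mitochondrial genes tested were lower in exosomes and 0 were higher, where 22.1% of all tested genes were lower and 16% higher. No member was higher at an unadjusted p under 0.05, and DESeq2 also called 32 lower and 0 higher. By library totals, 24 members were called lower and 3 higher, where 11.5% of all tested genes were lower and 63.8% higher. The median difference of the members was -4.68 with TMM and -1.92 with library totals. Of the 32 lower calls with TMM, 18 rest on genes with under 10 counts in both exosome libraries. mt-Tr, with 6 and 1 tumour counts and none in exosomes, was the only member too low to test.

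By share of library counts, without any model, 27 of the 37 genes lay lower in both exosome libraries than in both tumour libraries, where 15.8% of the tested genes did. The other groups were 5 genes that lay higher in both exosome libraries, namely mt-Ts1, mt-Tp, mt-Nd5, mt-Nd6 and mt-Co3, where 77.2% of the tested genes did, and 5 whose groups overlapped, namely mt-Tf, mt-Td, mt-Tt, mt-Nd3 and mt-Nd4.

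**Figure D2:**
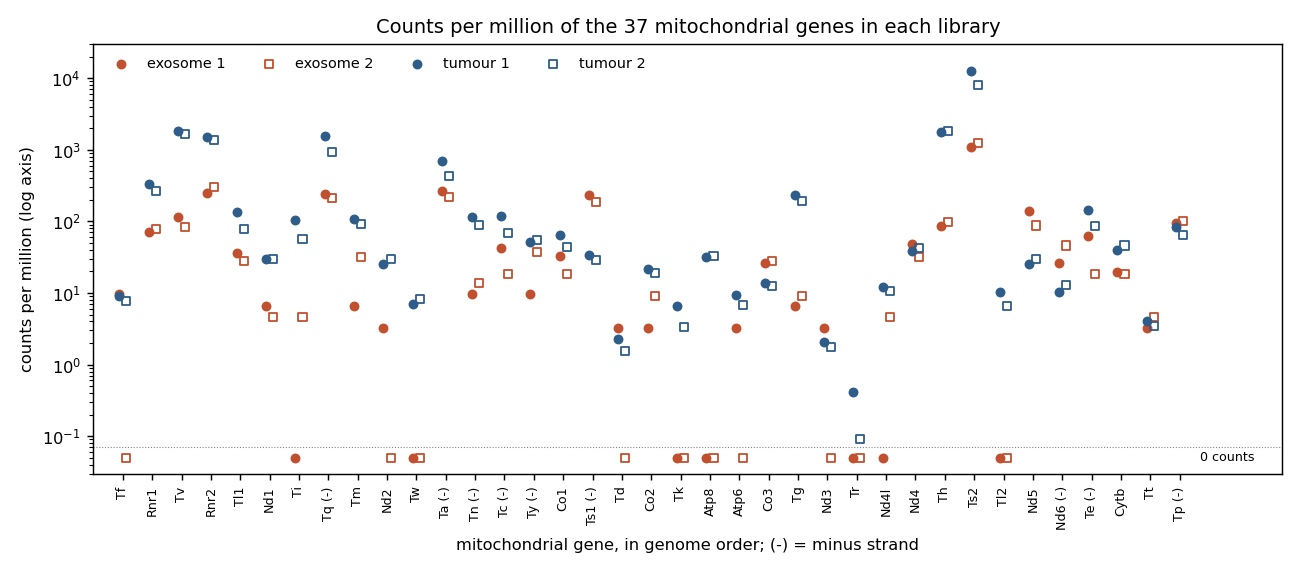
CPM (vertical axis, log scale) of the 37 mitochondrial genes in genome order (horizontal axis), with 1 point per library and genes without a count drawn on the lowest line. Most tumour points lie above the exosome points, and for mt-Ts1, mt-Nd5, mt-Nd6, mt-Co3 and mt-Tp the order is turned.

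Among plus-strand transfer RNAs, mt-Ts2 led every library. It had 337 and 269 counts in exosomes and 182212 and 87815 in tumour, which is 1102 and 1238 CPM (counts scaled to the library total) against 12529 and 8094 CPM. The exosome libraries were close to each other, both tumour libraries were higher, and tumour replicate 1 was well above tumour replicate 2. mt-Ts2 fell by 5.93 with TMM (SE 0.26, edgeR adjusted p = 5.63e-07) and by 3.14 with library totals.

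mt-Th, the histidine transfer RNA that lies directly before mt-Ts2 (chrM:11546-11612), had 85.0 and 96.7 CPM in exosomes and 1794 and 1850 CPM in tumour. The libraries of each group were close and the groups were far apart, with a difference of -7.12 (SE 0.20, edgeR adjusted p = 9.20e-08) and of -4.34 with library totals. mt-Tv, the valine transfer RNA between the 2 ribosomal RNA genes (chrM:1025-1093), had 114 and 82.9 CPM in exosomes and 1847 and 1659 CPM in tumour and fell by 6.90 (SE 0.25, edgeR adjusted p = 2.15e-07), and its difference with library totals was -4.13. mt-Tg, the glycine transfer RNA (chrM:9391-9458), had 2 counts in each exosome library and 3369 and 2078 in tumour, and it fell by 7.54 (SE 0.27, edgeR adjusted p = 2.35e-07) or, with library totals, by 4.78. At the tumour share, the depth of the exosome libraries would have given mt-Tg 64.7 and 46.0 counts.

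mt-Ti, the isoleucine transfer RNA, had 0 and 1 exosome counts, where the tumour share would have given 24.9 and 17.7. Its pooled exosome share was 0.0225 of the tumour share, with a 95% counting interval from 0.000570 to 0.126. The methionine transfer RNA mt-Tm had 2 and 7 counts in exosomes and 1590 and 997 in tumour, and mt-Tl1, the leucine transfer RNA for UUR codons, had 11 and 6 against 1953 and 859. They fell by 5.31 and 4.49 with TMM (edgeR adjusted p = 4.90e-06 and 3.21e-05).

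The remaining plus-strand transfer RNAs were rare in both groups. mt-Tf, mt-Tw, mt-Tk, mt-Tl2, mt-Tt and mt-Td had at most 150 counts in tumour and at most 3 in any exosome library. Exosome counts of mt-Tw were 0 and 0, which puts it at least 4.56-fold lower under TMM, against a floor of 3 counts per library. For mt-Tl2 and mt-Tk, also without exosome counts, the TMM levels were lower by at least 4.99-fold and at least 2.91-fold. With library totals their tumour levels lay under that floor, and no fold can be given. mt-Td had 1 and 0 counts against 33 and 17, and its difference of -2.73 was not called (edgeR adjusted p = 0.0662). The gene was called lower with a replicate block (edgeR adjusted p = 0.0365) and without a filter on low counts (edgeR adjusted p = 0.00166). Without tumour replicate 2 its difference was -2.90. In total, 12 of the 13 plus-strand transfer RNAs tested were called lower with TMM, where 22.1% of all tested genes were. With library totals 9 were called lower, where 11.5% of all tested genes were. These 9 include mt-Tw and mt-Tl2, which had no exosome count and for which no fold can be given on that scale.

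As a share of library counts the minus-strand transfer RNAs were lower in exosomes, with 0.0882% ± 0.0108 against 0.229% ± 0.0756 in tumour, a 2.60-fold gap where that of the plus strand was 10.1-fold. With TMM 7 of the 8 were called lower, where 22.1% of all tested genes were. By library totals 6 were called lower and mt-Ts1 higher, where 11.5% of all tested genes were lower and 63.8% higher. All 8 had counts in both exosome libraries, against 7 of the 14 on the plus strand. Apart from mt-Ti, the plus-strand genes that lacked a count were rare in tumour. At the tumour share they would have had at most 2.58 counts in an exosome library, and the lowest such value on the minus strand was 6.84, for mt-Ts1. mt-Ts1 stood apart from the other members of its class. It had 71 and 41 counts in exosomes and 500 and 310 in tumour, which is 232 and 189 CPM against 34.4 and 28.6 CPM. Both exosome libraries were far above both tumour libraries, and the pooled share was 6.71 times as high (95% counting interval 5.46 to 8.19). The difference was -0.02 with TMM (SE 0.21, edgeR adjusted p = 0.961) and turned to 2.75 with library totals (SE 0.30, edgeR adjusted p = 2.57e-11). On both scales its difference lay close to the median of all tested genes. Without a filter on low counts, which moved the median of all genes to -1.86, mt-Ts1 was called lower with TMM (-1.20, edgeR adjusted p = 4.36e-06). Among transfer RNA counts alone, mt-Ts1 made up 9.99% and 8.20% of transfer RNA counts in exosomes and 0.175% and 0.207% in tumour.

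mt-Tp, the proline transfer RNA next to the control region (chrM:15356-15422), had 94.8 and 101 CPM in exosomes and 82.5 and 63.7 CPM in tumour. The exosome values were higher in both libraries by a small margin. Its difference was -2.36 with TMM (SE 0.20, edgeR adjusted p = 3.41e-05) and turned to 0.42 with library totals (edgeR adjusted p = 0.224).

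mt-Ta, the alanine transfer RNA (chrM:5018-5086), had 265 and 216 CPM in exosomes and 706 and 430 CPM in tumour. It fell by 4.00 with TMM (SE 0.29, edgeR adjusted p = 1.25e-05) and by 1.23 with library totals. mt-Tq, the glutamine transfer RNA (chrM:3772-3842), had 242 and 212 CPM against 1576 and 938 CPM and fell by 5.23 (SE 0.30, edgeR adjusted p = 2.74e-06) or, with library totals, by 2.46. In both genes the exosome libraries were close to each other and tumour replicate 1 was the highest.

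The glutamate, cysteine, tyrosine and asparagine transfer RNAs mt-Te, mt-Tc, mt-Ty and mt-Tn had 3 to 19 counts in single exosome libraries and 594 to 2082 in tumour. All 4 were called lower, with TMM differences of -4.16, -4.31, -4.11 and -5.91 and with -1.42, -1.56, -1.32 and -3.14 by library totals. Replicates were uneven at this depth, since mt-Te had 19 and 4 counts and mt-Ty 3 and 8.

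Over the whole class, minus-strand genes took 41.2% (95% exact Clopper-Pearson interval 37.56% to 44.9%) and 35.0% (30.8% to 39.4%) of transfer RNA counts in exosomes, and 14.4% and 12.7% in tumour. Without mt-Ts2 the shares were 78.3% and 75.8% against 39.9% and 30.8%. Without mt-Ts1 as well, they were 73.3% and 70.5% against 39.6% and 30.4%, so that the gap did not rest on mt-Ts1 alone. In tumour, plus-strand transfer RNAs other than mt-Ts2 held 19.6% and 25.1% of mitochondrial counts. Most of this lay in mt-Th (8.23% and 11.7%) and mt-Tv (8.47% and 10.5%). In exosomes mt-Th held 2.87% and 3.30% of mitochondrial counts and mt-Tv 3.86% and 2.83%. The gap in strand shares therefore rests in part on mt-Th and mt-Tv. Strand shares without them were not computed, so the size of that part is not given. Over all transfer RNAs tested, the median difference with library totals was -1.37 for the 8 of the minus strand and -4.13 for the 13 of the plus strand, where genes without exosome counts enter with fitted values that are no bounds. Among transfer RNAs with over 3 exosome counts, a filter that leaves out 8 of the 14 on the plus strand, the median difference was -1.37 for the 8 on the minus strand and -3.63 for the 6 on the plus strand with library totals, and -4.14 and -6.41 with TMM. The ranges of the single genes overlapped, from -3.14 to 2.75 and from -4.78 to -1.72 with library totals. Whether the counts used strand is not given in the sources used here, so a read from either strand of a locus may stand in these values. Across these 14 genes, the difference with library totals had Spearman's rho of 0.41 with GC content and of -0.65 with the tumour level, as a description of genes that share libraries and of 2 measures that share the tumour counts.

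**Figure D3:**
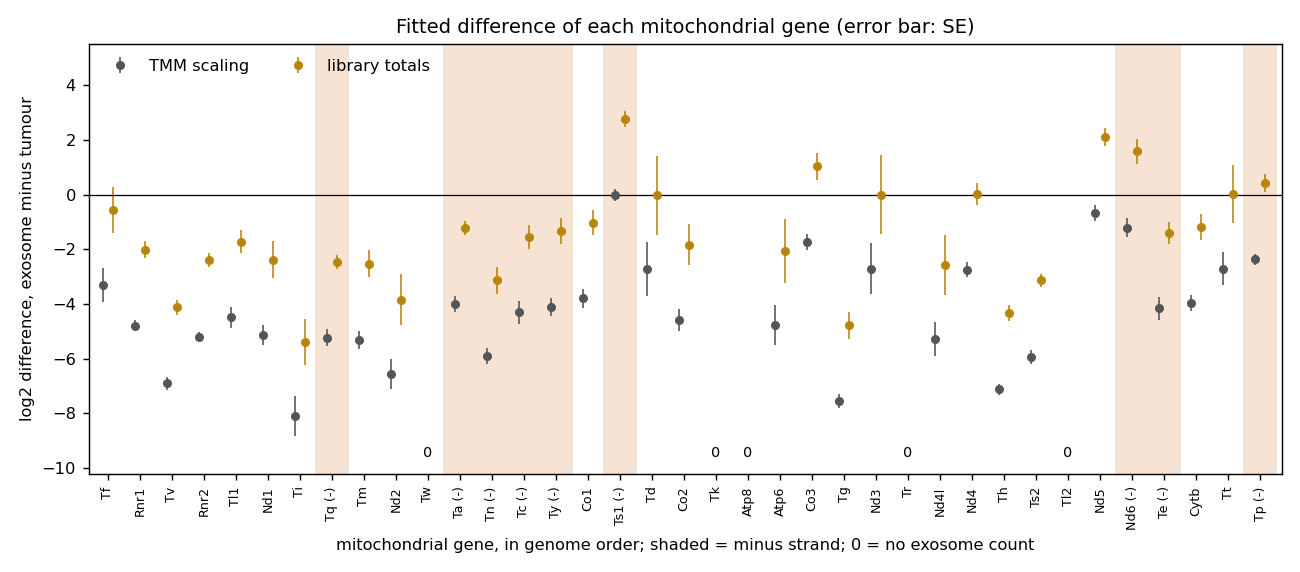
Log2 difference, exosomes minus tumour, with its SE for each mitochondrial gene in genome order, with TMM scaling and with library totals. Minus-strand genes are shaded and genes without an exosome count are marked 0. With library totals, mt-Ts1 at 2.75, mt-Nd5 at 2.09 and mt-Nd6 at 1.58 lie highest, and among genes with an exosome count mt-Ti at -5.40 and mt-Tg at -4.78 lie lowest.

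Neighbouring transfer RNA genes differed widely in counts, also where they lie on the same strand. The libraries were made with ligated adaptors and gel excision, which selects by length. Whether this entered the ratios below was not tested. Per length, as the deposited FPKM give it, mt-Ts2 was 1461 and 1488 times as high as mt-Tl2, the leucine transfer RNA that follows it and shares 1 base with it, in the 2 tumour libraries, and 7.93 and 4.97 times as high as mt-Th before it. In exosomes mt-Ts2 was 14.7 and 14.6 times as high as mt-Th, and mt-Tl2 had no count. mt-Tv was 202 and 209 times as high in tumour as mt-Tf, the first gene of the same precursor, and 14.96 and 22.8 times as high as mt-Tl1. In exosomes mt-Tv was 3.46 and 3.26 times as high as mt-Tl1. In the cluster of mt-Ti, mt-Tq and mt-Tm, the minus-strand mt-Tq was 14.4 and 16.1 times as high in tumour as the plus-strand mt-Ti, with which it shares 3 bases. mt-Tp and mt-Tt, which face each other at the end of the gene order, kept similar ratios in both groups, with 29.0 and 22.0 in exosomes and 20.3 and 18.7 in tumour, although mt-Tt had 1 count in each exosome library.

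The ribosomal RNAs fell together. mt-Rnr2, the RNA of the large mitochondrial ribosomal subunit (chrM:1094-2675), had 252 and 299 CPM in exosomes and 1515 and 1376 CPM in tumour. mt-Rnr1, that of the small subunit (chrM:70-1024), had 72.0 and 78.3 CPM against 338 and 264 CPM. In both genes the libraries of a group were close to each other and the groups did not overlap. mt-Rnr2 fell by 5.19 (SE 0.17, edgeR adjusted p = 1.50e-07) and mt-Rnr1 fell by 4.79 (SE 0.21, edgeR adjusted p = 5.29e-07), and with library totals the differences were -2.40 and -2.01. mt-Rnr2 made up 77.8% and 79.3% of ribosomal RNA counts in exosomes and 81.8% and 83.9% in tumour. Per length it was 2.11 and 2.31 times as high as mt-Rnr1 in exosomes and 2.71 and 3.14 times as high in tumour. The order was the same in all 4 libraries.

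Of the 13 messenger RNAs, 11 were lower with TMM and 0 higher, where 22.1% of all tested genes were lower and 16% higher. By library totals 7 were called lower and 2 higher, where 11.5% of all tested genes were lower and 63.8% higher. The complex I genes, which encode subunits of NADH dehydrogenase, had mean exosome levels from 1.58 FPKM for mt-Nd2 to 69.6 FPKM for mt-Nd6. mt-Nd5 (chrM:11742-13565) had 43 and 19 counts in exosomes and 370 and 319 in tumour, or 77.1 and 48.0 against 13.9 and 16.1 FPKM. Both exosome values were above both tumour values. Its difference was -0.68 with TMM (SE 0.29, edgeR adjusted p = 0.112) and turned to 2.09 with library totals (SE 0.33, edgeR adjusted p = 3.17e-07). With TMM it was called lower without a filter on low counts (-1.86, edgeR adjusted p = 1.14e-11) and with a replicate block (-0.69, edgeR adjusted p = 0.0390). The TMM difference was -1.26 without exosome replicate 1 and -0.31 without exosome replicate 2. mt-Nd5 alone made up 44.8% (95% exact interval 34.6% to 55.3%) and 35.2% (22.7% to 49.4%) of mitochondrial messenger RNA counts in exosomes and 7.81% and 9.23% in tumour.

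mt-Nd6, the one messenger RNA on the minus strand (chrM:13552-14070), lies opposite the end of mt-Nd5 and shares 14 bases with it. It had 8 and 10 counts in exosomes and 150 and 141 in tumour, or 50.4 and 88.7 against 19.9 and 25.0 FPKM. The exosome values were again the higher ones. Its difference was -1.21 with TMM (SE 0.34, edgeR adjusted p = 0.0243) and turned to 1.58 with library totals (SE 0.47, edgeR adjusted p = 0.00289), so that the call as lower holds only on the first scale. The TMM call was also lost without exosome replicate 1, without tumour replicate 2 or with at least 10 counts in at least 2 libraries.

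mt-Nd4 (chrM:10167-11544) had 15 and 7 counts in exosomes and 566 and 467 in tumour, or 35.6 and 23.4 against 28.2 and 31.2 FPKM. The groups overlapped. Its difference was -2.74 with TMM (SE 0.28, edgeR adjusted p = 9.52e-05) and 0.03 with library totals (edgeR adjusted p = 0.953). The first 2 complex I genes in the gene order were scarce in exosomes, with 2 and 1 counts for mt-Nd1 (431 and 326 in tumour) and 1 and 0 for mt-Nd2 (373 and 325). Their pooled exosome shares were 0.192 (95% counting interval 0.0396 to 0.565) and 0.0696 (0.00176 to 0.389) of the tumour shares. mt-Nd4l had 0 and 1 counts in exosomes against 178 and 115. mt-Nd3 had 1 and 0 against 30 and 19, and its difference of -2.71 with TMM was not called (edgeR adjusted p = 0.0575). The gene was called lower with median-of-ratios scaling (edgeR adjusted p = 0.0462) and with a replicate block (edgeR adjusted p = 0.0376). It was also called lower without a filter on low counts (edgeR adjusted p = 0.00190). Without tumour replicate 1 or 2 its difference was -2.59 and -2.76.

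Among the cytochrome c oxidase subunits of complex IV, mt-Co3 (chrM:8607-9390) had 8 and 6 counts in exosomes and 198 and 136 in tumour, or 33.4 and 35.2 against 17.4 and 15.99 FPKM. Its exosome values were about even and both above the tumour values. The difference was -1.74 with TMM (SE 0.28, edgeR adjusted p = 0.00155) and turned to 1.03 with library totals (edgeR adjusted p = 0.0530). mt-Co1 (chrM:5328-6872) had 10 and 4 counts against 941 and 474 and fell by 3.79 with TMM and by 1.03 with library totals (edgeR adjusted p = 6.20e-05 and 0.0365). mt-Co2 (chrM:7013-7696) had 1 and 2 counts against 319 and 206.

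mt-Cytb, the cytochrome b gene of complex III (chrM:14145-15288), had 6 and 4 counts in exosomes and 588 and 500 in tumour. It fell by 3.95 with TMM (SE 0.29, edgeR adjusted p = 1.29e-05) and by 1.18 with library totals (edgeR adjusted p = 0.0263).

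The 2 ATP synthase messenger RNAs had 1 exosome count between them. mt-Atp8 (chrM:7766-7969) had the highest tumour level per length of the 13, with 155 and 161 FPKM, from 460 and 357 counts. It had no count in either exosome library, where the tumour share would have given 9.87 and 7.01, and its level was lower by at least 19.2-fold on the TMM scale and by at least 2.73-fold on library totals. mt-Atp6 (chrM:7927-8607), which overlaps it by 43 bases on the same strand, had 1 and 0 exosome counts against 136 and 73, where the tumour share would have given 2.46 and 1.75. It was called lower with TMM (edgeR adjusted p = 0.00114) but not with library totals (edgeR adjusted p = 0.100), and its pooled share ratio of 0.232 had a 95% counting interval from 0.00586 to 1.31. Reads in the shared bases may have been left out or given to either gene.

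The order of the messenger RNAs per length was thus not the same in the 2 groups. In tumour mt-Nd5 stood at 0.494 and 0.516 of mt-Nd4 and at 0.395 and 0.400 of mt-Cytb. In exosomes it was 2.17 and 2.05 times as high as mt-Nd4 and 4.49 and 2.98 times as high as mt-Cytb. Across the 13 genes, exosome and tumour FPKM had Spearman's rho of -0.19, as a description, with most exosome values resting on a few reads.

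**Figure D4:**
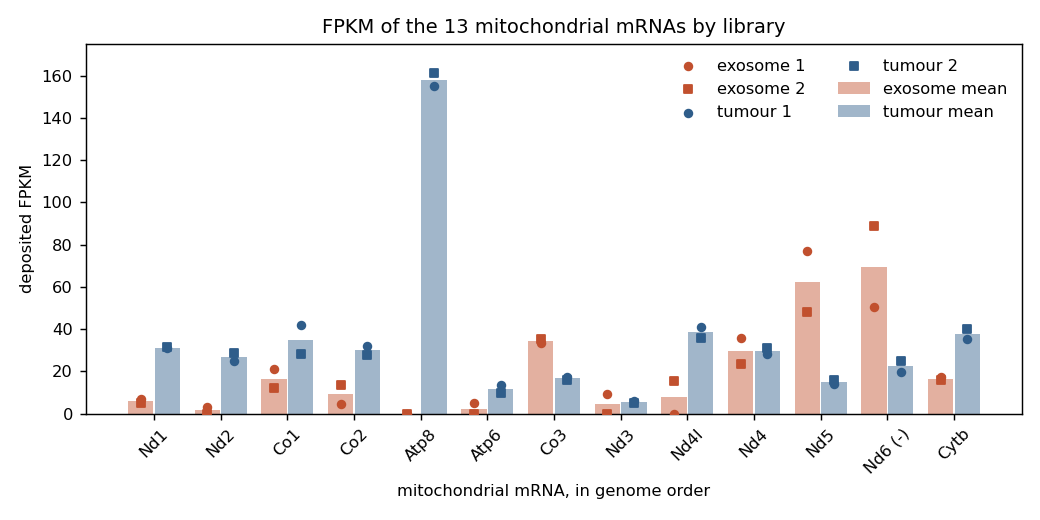
Deposited FPKM (vertical axis) of the 13 mitochondrial messenger RNAs in genome order, with bars for the mean of 2 libraries and points for single libraries. mt-Atp8 leads in tumour at 155 and 161, and mt-Nd5 and mt-Nd6 lead in exosomes.

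Several messenger RNA values are uncertain because the nuclear genome holds near-identical copies. Among annotated genes with a count, 14 pseudogenes were at least 90% identical to 1 of 11 members over at least 80% of the shorter sequence. Of these, 7 lie side by side on chromosome 1 between bases 24611535 and 24616197 (GRCm38), in the mitochondrial gene order and with the mitochondrial spacing to within 1 base, and they match bases 6390 to 11042 of the mitochondrial genome. The same stretch holds mt-Ts1, mt-Td, mt-Tk, mt-Tg and mt-Tr, for which no copy is annotated, and the nuclear sequence between the pseudogenes was not used here. The rule for reads that match several places is not given in the sources used here.

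Of the 5 copies with no mismatch, those of mt-Co2, mt-Co3 and mt-Nd4l had about the tumour count of the gene itself. Gm28661, the copy of mt-Co2, had 307 and 199 tumour counts where mt-Co2 had 319 and 206. Gm28437, the copy of mt-Co3, had 203 and 147 where mt-Co3 had 198 and 136, and Gm10222, the copy of mt-Nd4l, had 165 and 120 where mt-Nd4l had 178 and 115. In the tumour libraries the ratio of copy to gene for these 3 ran from 0.927 to 1.08. Gm10925, the copy of mt-Atp6, had 131 and 96 counts against 136 and 73, and in exosomes it had 0 and 3 counts against 1 and 0.

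The copy of mt-Nd3, Gm28438, exceeded its gene. It had 368 and 334 tumour counts, which is 12.3 and 17.6 times the 30 and 19 of mt-Nd3, and 3 and 1 exosome counts. The 2 sequences differ by a single substitution over 345 bases, T3C, counted from the first base of mt-Nd3 with the mitochondrial base first. With copies added to their genes and genes that overlap on the same strand joined, mt-Nd3 was called lower (-4.42 with TMM, edgeR adjusted p = 2.43e-05).

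For mt-Nd4 the ratio of copy to gene was higher in both exosome libraries than in both tumour libraries, a difference that was not tested. Gm28439 matches the first 876 bases of mt-Nd4 without a mismatch. It had 12 and 6 counts in exosomes, or 0.800 and 0.857 of the mt-Nd4 counts, and 70 and 45 in tumour, or 0.124 and 0.0964. In the fit with copies added, mt-Nd4 joined with mt-Nd4l had a TMM difference of -2.55, and the number of members called lower was 31 of 34. The share of all tested genes called lower in that fit was not computed. No near-identical annotated copy of mt-Atp8 had a count, and the copies of mt-Nd5 and mt-Nd6 had at most 8 counts in any library. Among transfer RNAs, mt-Tn and mt-Tl1 matched the protein-coding gene Cep295, at 91.5% identity over 71 bases and 93.5% over 62 bases. Cep295 had at most 3 counts in any library.

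**Figure D5:**
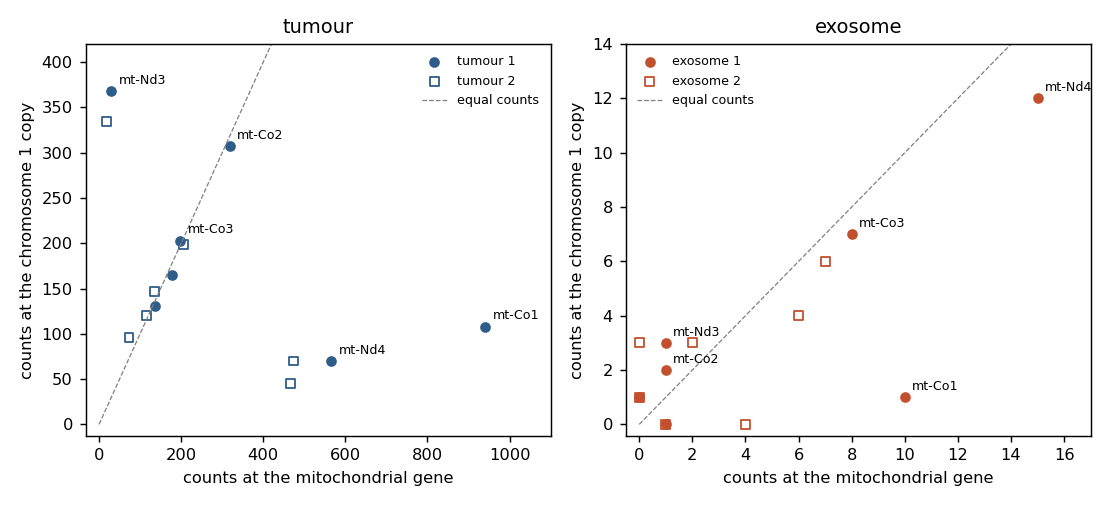
Counts at the 7 chromosome 1 pseudogenes (vertical axis) against counts at the matching mitochondrial genes (horizontal axis), in tumour and exosome libraries, with a dashed line at equal counts. In tumour most genes lie near the line, mt-Nd3 lies far above it, and mt-Nd4 and mt-Co1, which the copies cover only in part, lie below it.

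To ask which genes took a larger or smaller part of the mitochondrial RNA itself, the same model was fitted with the mitochondrial total of each library as the scale. On this scale 9 of 36 members were higher in exosomes and 4 lower, where 81.0% of all tested genes were higher and 5.89% lower, since the typical tested gene stood at 5.44. The higher ones were the messenger RNAs mt-Nd4, mt-Nd5, mt-Nd6, mt-Co1 and mt-Co3 and the transfer RNAs mt-Ta, mt-Ts1, mt-Te and mt-Tp. Of these, 5 lie on the minus strand, including all 4 transfer RNAs. The lower ones were the plus-strand transfer RNAs mt-Tv, mt-Ti, mt-Tg and mt-Th.

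mt-Ts1 had the largest difference of the 9, at 5.40 (SE 0.47, edgeR adjusted p = 1.55e-29), followed by mt-Nd5 at 4.70 (SE 0.50) and mt-Nd6 at 4.205 (SE 0.67). mt-Th had -1.70 (SE 0.42, edgeR adjusted p = 8.06e-05) and mt-Tv -1.49 (SE 0.41, edgeR adjusted p = 0.000479). mt-Ts2 (-0.45) and the ribosomal RNAs (0.25 and 0.65) were not called. The lower calls of mt-Ti and mt-Tg were lost without exosome replicate 1 and without exosome replicate 2, and that of mt-Ti also without tumour replicate 1. The call of mt-Ti was further lost without a filter on low counts (edgeR adjusted p = 0.118). It was also lost with at least 10 counts in at least 2 libraries (edgeR adjusted p = 0.0586) and with a replicate block (edgeR adjusted p = 0.0619). The higher call of mt-Te (1.26) was lost without exosome replicate 1 (0.0572, edgeR adjusted p = 0.962), without either tumour library, without mt-Ts2 in the total and without a filter on low counts. That of mt-Co1 (1.64) was lost without exosome replicate 1 (1.13, edgeR adjusted p = 0.398), without the 2 most abundant members in the total and without a filter. The other 7 higher calls and those of mt-Tv and mt-Th held under every alternative run for this fit. Without mt-Ts2 in the total, 8 were higher and 6 lower, and mt-Ts2 and mt-Atp8 were then among the lower ones.

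Nuclear genes of the same organelle were too scarce to follow in these libraries. Of 86 nuclear genes for subunits of the respiratory complexes and ATP synthase, 7 could be tested, and 0 were called with TMM (median -0.17), while 6 were higher with library totals, a scale on which 63.8% of all tested genes were higher and the list's median of 2.56 lay near the 2.75 of all genes. The ATP synthase subunit gene Atp5b had 6 and 7 exosome counts and 49 and 19 in tumour (0.47 with TMM, edgeR adjusted p = 0.583). The complex I gene Ndufs7 had 3 and 8 against 75 and 34, and Cox7a2l had 3 and 2 against 13 and 14. Of 10 genes for mitochondrial membrane, import and matrix proteins 4 were tested and 0 called with TMM, with 1 higher by library totals. Hspd1, a matrix chaperone, had 3 and 0 counts in exosomes, Hspa9 had 1 and 2, and the import receptor gene Tomm20 had 1 and 1.

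Of 78 genes for mitochondrial ribosomal proteins only Mrpl14 was tested, with no exosome count against 45 and 46 in tumour, and it was lower with TMM (edgeR adjusted p = 0.00865) but not with library totals. Of 31 genes for mitochondrial transcription and RNA maturation 0 were tested. The nuclear and mitochondrial genes of the respiratory chain thus had 51 and 42 exosome counts against 96 and 54, and 396 and 249 tumour counts against 4740 and 3458. Both annotated nuclear transfer RNA genes, the serine genes n-TStga1 and n-TSaga9, were called higher in exosomes on both scales. The share of all tested genes called higher was 16% with TMM and 63.8% with library totals. For n-TStga1 the exosome libraries held 1694 and 1075 counts, while the tumour libraries held 18 and 11. Among the 21 mitochondrial transfer RNAs tested, 19 were called lower with TMM, where 22.1% of all tested genes were. By library totals 15 were called lower and 1 higher, where 11.5% of all tested genes were lower and 63.8% higher.

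Markers of cell types were sparse at this depth. CPM scale to library totals, where the typical tested gene stood 2.75 (log2) higher in exosomes. A higher CPM sum in exosomes therefore does not by itself set a marker list apart. The 5 carcinoma and epithelial markers summed to 111 and 87.5 CPM in exosomes and 11.4 and 7.83 CPM in tumour. Epcam and Cdh1 were at 0 in all libraries and Krt8 had no exosome count, so the exosome sum rests on 2 genes, Krt18 and Vim. The part of each in that sum is not given here. Of 5 exosome marker genes, Cd63, Cd81 and Tsg101 had no exosome count, and the 5 summed to 9.81 and 9.21 CPM against 2.27 and 2.58 CPM. Of 5 skeletal muscle markers, from a tissue rich in mitochondria, Ckm, Myh4 and Mb were at 0 in all libraries, and the 5 summed to 9.81 and 9.21 CPM in exosomes and 0.756 and 0.0922 CPM in tumour. The 5 erythroid markers summed to 268 and 483 CPM in exosomes and 114 and 81.2 CPM in tumour, the 5 fibroblast markers to 75.2 and 96.7 against 8.73 and 6.82 CPM, and the 5 leukocyte markers to 3.27 and 41.4 against 5.501 and 3.595 CPM. Exosome counts were found for 2 of the 5 carcinoma, 2 of the 5 exosome, 5 of the 5 erythroid, 3 of the 5 fibroblast, 2 of the 5 leukocyte and 2 of the 5 muscle markers. The 3 platelet markers had no exosome count. The part of these cell types in the mitochondrial values was not tested.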

How the data were processed

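The authors deposited a table with a raw count and an FPKM per gene for each of 4 libraries, per the file headers. The deposited counts are whole numbers without normalization. The deposited FPKM matched counts per length per library total within 0.0806% in every member, and were used only to compare genes per length. The submitters' processing notes name TopHat2 2.0.9, Cufflinks 2.1.1, Cuffdiff and GRCm38.p4. Which program counted reads, with which annotation, strand setting and rule for several matches, is not given in the sources used here. Adaptors were ligated to total RNA and products were excised from a gel, per the labels' protocols, which selects by length. Members were the 37 genes on the mitochondrial chromosome of GENCODE M21.

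The main test was edgeR 4.0.16 under R 4.3.3 (TMM, filterByExpr with minimum count 10 and total 15, quasi-likelihood test, group only, Benjamini-Hochberg adjustment over 1442 genes at 0.05). The SE of a difference is its size divided by the square root of F. The same fit was run with library totals and with the mitochondrial total as the scale. Alternatives were other scalings (including TMMwsp and median-of-ratios), DESeq2 1.42.0, other filters, the replicate number as a block, leaving out 1 library at a time, and copies summed. Leaving mt-Ts2 out of the total and adding nuclear copies to the shares were chosen after seeing the data. Copies were found with blastn 2.17.0 (at least 90% identity over 80% of the shorter sequence and 50 bases). Anticodons were located as the known triplet after a pyrimidine and before a purine. Folds against 0 counts use a floor of 3 counts per library. Replicates differed by more than sampling noise (chi-square per degree of freedom 18.7 and 16.5). The script was tested on simulated data. Named genes were all members, some of the near-identical copies with a count, up to 3 tested genes of each list, and cell type markers. The members and lists were chosen with earlier results of these data known.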

Additional observations from a re-analysis of the deposited data

How the results depend on the processing

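The number of members called lower ranged from 24 to 36 over all alternatives and the number called higher was 0 in all but library totals, where it was 3. The 24 came from library totals, where the median of all genes was 2.75. The 36 came from the fit without a filter on low counts, where that median was -1.86. The share of all tested genes called lower was 22.1% in the main fit and 11.5% with library totals. It was not computed for the other alternatives, including the replicate block. Library totals turned the sign for mt-Ts1 (2.75), mt-Nd5 (2.09), mt-Nd6 (1.58), mt-Co3 (1.03), mt-Tp (0.42), mt-Nd4 (0.0278) and mt-Tt (0.0264). The value of mt-Ts1 also turned to 0.42 with at least 10 counts in at least 2 libraries, and it ran from -0.35 to 0.22 with 1 library left out. The cause was not tested.

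Relative to the mitochondrial total, the number of lower members ran from 2 to 4 with 1 library left out. Without mt-Ts2, the total gave -0.15 for mt-Rnr2, -0.15 for mt-Nd1, -0.19 for mt-Tq, -0.27 for mt-Tm and -0.33 for mt-Nd4l, none of them called. Without the 2 most abundant members these were -0.17, -0.18, -0.22, -0.30 and -0.36. With 1 library left out, mt-Nd1 ran from -0.0498 to 0.51, mt-Tm from -1.30 to 1.02, mt-Nd4l from -9.65 to 1.35, mt-Tf from -9.21 to 2.87, mt-Td from -7.07 to 3.42, mt-Atp6 from -9.13 to 1.37 and mt-Nd3 from -7.06 to 3.43. The lowest values arise where the exosome library kept has no count of the gene, and they are no bounds.

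Shares depend on what the library total holds. Without small nucleolar and small nuclear RNA genes, all members held 0.602% of exosome and 33.5% of tumour counts, messenger RNAs 0.0574% and 0.581%, ribosomal RNAs 0.0718% and 3.14%, and transfer RNAs 0.473% and 29.8%. Without the 5 most abundant genes of each library the shares were 0.498% and 3.96%, 0.0478% and 0.0680%, 0.0590% and 0.368%, and 0.391% and 3.52%. With nuclear copies added, all members held 0.304% of exosome counts, and messenger RNAs held 0.0376% and 0.0430%.

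With a replicate block 35 members were called lower and 0 higher, and relative to the mitochondrial total 10 higher and 3 lower. Deviations of same-numbered libraries had a correlation of -0.0198 over 1442 genes, and of 0.0444 over the 204 genes with at least 10 counts in every library. With 2 libraries per group and exosome libraries of low depth, these values cannot show whether same-numbered libraries came from the same animal. Depth limits the exosome values, since 21 of 37 members had under 10 counts in both exosome libraries.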
